A study of Mus musculus with 12 samples.

Results

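Genes that switch the heart between glucose and fatty acids as fuel were compared between hearts of exercised and sedentary mice. The set comprised 9 genes chosen by name, the pyruvate dehydrogenase kinases Pdk1, Pdk2 and Pdk4, the uncoupling proteins Ucp2 and Ucp3, the acyl-CoA thioesterases Acot1 and Acot2, and Angptl4 and Plin5, which act on lipid supply and storage. Every probe whose annotated symbol was one of these names was taken, which gave 16 probes for 8 genes; the level of Ucp2 was not analysed here. All 8 were among the 9843 genes measured. The choice was made with it already known that Acot1 was lower in exercised hearts, so its values are a description and no independent evidence.

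All hearts came from male C57Bl/6 mice aged 8 weeks. One group had 7 days of access to voluntary running (exercised, n = 6) and the other stayed sedentary over the same period (n = 6). Whole hearts were used, so the RNA mixes muscle, vessels, connective tissue and immune cells, and fewer cells of a type cannot be told apart from less RNA per cell. Whether the 6 replicates of a group are 6 animals is not stated in the labels, and the spread on which the p-values rest may thus be technical.

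In the heart, pyruvate dehydrogenase admits pyruvate from glucose to the tricarboxylic acid cycle. Its kinases phosphorylate and inhibit it, and its phosphatases reverse this. Fasting and high fatty acid supply activate the nuclear receptor PPAR-alpha, which raises Pdk4, Ucp3, Acot1, Angptl4 and genes of fatty acid oxidation, and so favours fat over glucose.

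Facts of the arrays bear on every value below. Between 16619 and 18708 probes were detected per array, and the number of arrays limits the precision. Raw background fell in a low range on 8 arrays and a high range on 4, which were exercised replicates 2, 3 and 6 and sedentary replicate 2. The mean of 8 measured hepatocyte markers was 10.93, 12.45 and 13.21 (log2 intensity) in exercised replicates 1, 5 and 6, against 6.80 to 8.04 in the other exercised and 6.31 to 8.60 in the sedentary arrays; the markers of highest mean over all arrays were Serpina1b, Apoa2, Ttr and Ahsg, while the probes of Alb and Fgb did not pass the detection filter. The mean of 7 cardiomyocyte markers, among them Myl2 and Myh6, lay between 13.68 and 13.89 on all arrays. Macrophage markers, 9 in number, averaged 8.67 ± 0.17 (SD, n = 6) in the exercised and 9.21 ± 0.28 in the sedentary group, and 7 endothelial markers 9.97 ± 0.10 and 10.30 ± 0.11. Of the adipocyte markers 3 of 9 were measured, with means of 6.56 to 8.61 in exercised and 6.69 to 8.09 in sedentary arrays, and Ucp1, Lep, Retn, Plin1 and Elovl3 did not pass the filter. Skeletal muscle markers, 3 of 8 measured, averaged 5.86 to 6.95 and 6.51 to 6.93, with Myh1, Myh4, Actn3 and Tnnt3 below the filter.

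None of the 8 genes passed an adjusted p of 0.05 in limma, a threshold that 0.183% of all genes passed. At an unadjusted p under 0.05 there were 3 of 8, with Pdk1 higher and Acot1 and Angptl4 lower in exercised hearts, against 15.9% of all genes. For 0 of 8 did the arrays of the groups separate without overlap, which 1.12% of all genes did. Of the 8 differences 4 were positive and 4 negative, with a median of -0.06, beside -0.04 over all genes, and they ranged from -0.72 for Angptl4 to 0.40 for Pdk1. Median scaling turned 1 sign, that of Plin5, and gave a median of 0.27, which is 0.0076 above that of all genes.

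**Figure D1:**
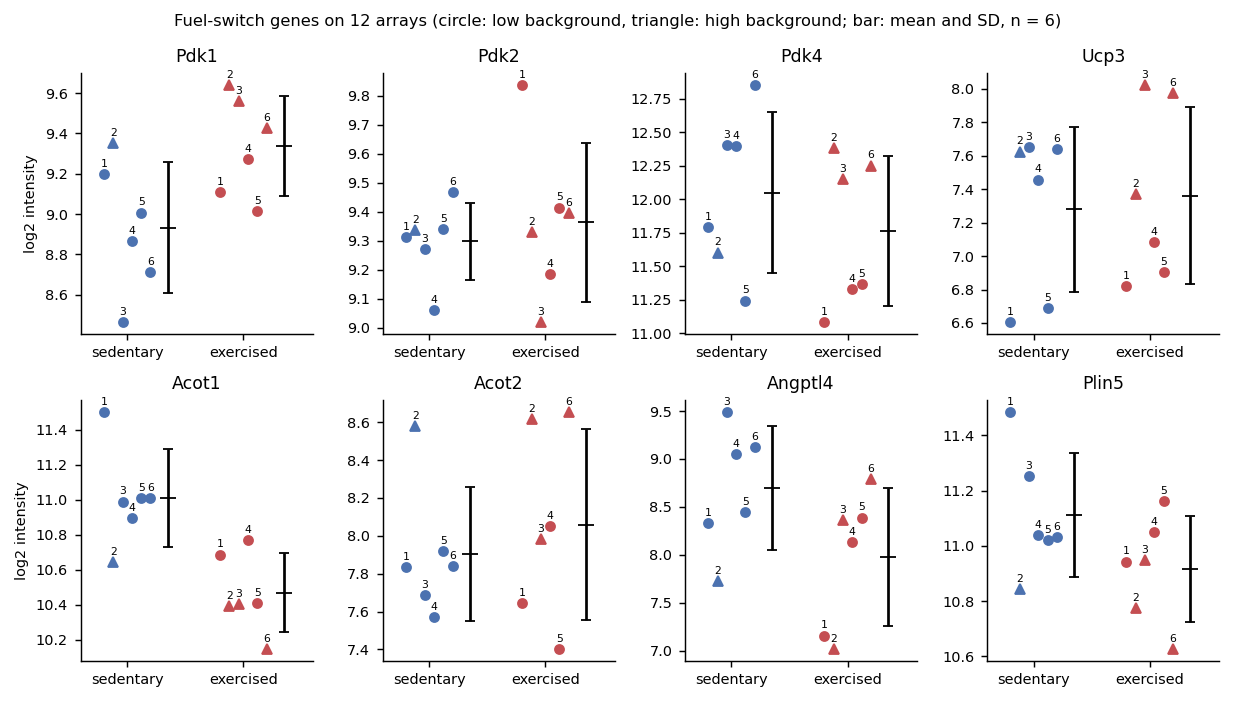
Log2 intensity of the 8 measured fuel-switch genes on every array, with sedentary and exercised replicates numbered, circles for low-background and triangles for high-background arrays, and black bars for the group mean and SD (n = 6). Exercised Acot1 values of 10.15 to 10.77 lie mostly below the sedentary values of 10.64 to 11.50, whereas Pdk4 and Ucp3 vary widely within both groups.

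The pyruvate dehydrogenase kinases did not move as a family. Pdk4, the isoform induced by fasting, was at 11.08, 12.38, 12.15, 11.33, 11.37 and 12.25 (log2 intensity) in exercised replicates 1 to 6. In sedentary replicates 1 to 6 it was at 11.79, 11.60, 12.40, 12.40, 11.24 and 12.85. Both groups held low and high arrays and overlapped, with 1 exercised array below every sedentary one and 3 sedentary arrays above every exercised one. The difference was -0.29 (SE 0.28, 95% interval -0.89 to 0.32; adjusted p = 0.60 in limma; exact two-sided permutation p = 0.41, n = 6). The 3 exercised arrays of high background were the 3 with the highest Pdk4, at 12.15 to 12.38, and the 3 of low background had 11.08 to 11.37. Within the 8 low-background arrays the difference was -0.88 (SE 0.28, adjusted p = 0.19 in limma). Within the 4 high-background arrays it was 0.66, where the sedentary group is 1 array at 11.60. With the background range as a block it was -0.44 (adjusted p = 0.55 in limma). The difference was -0.13 without sedentary replicate 6, -0.15 without exercised replicate 1 and -0.45 without sedentary replicate 5.

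Pdk1, a kinase that hypoxia induces, was the one member with a higher mean and an unadjusted p under 0.05. Its exercised values were 9.11, 9.64, 9.56, 9.27, 9.02 and 9.43, and its sedentary values 9.20, 9.35, 8.46, 8.87, 9.01 and 8.71. Of the exercised arrays 3 exceeded all sedentary ones, and 4 sedentary arrays lay below every exercised one. The difference was 0.40 (SE 0.15; adjusted p = 0.24 in limma; exact two-sided permutation p = 0.039, n = 6). All 4 high-background arrays, at 9.35 to 9.64, were above all 8 low-background arrays, at 8.46 to 9.27. With the background range as a block the difference was 0.26 (SE 0.12, adjusted p = 0.37 in limma), and within the low-background arrays it was 0.28. A further Pdk1 probe was detected on 0 arrays.

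Pdk2, a widely expressed kinase of the complex, was nearly level. Exercised arrays ranged from 9.02 to 9.84 with a mean of 9.36 ± 0.28, and sedentary arrays from 9.06 to 9.47 with a mean of 9.30 ± 0.13 (SD, n = 6). The difference was 0.06 (95% interval -0.20 to 0.33; adjusted p = 0.80 in limma), and it was -0.12 without the 3 liver-rich exercised arrays. The highest and the lowest of all 12 arrays were both exercised, replicates 1 and 3.

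The thioesterases, which release free fatty acids from their acyl-CoA esters in the cytosol (Acot1) and in mitochondria (Acot2), gave different values. Acot1 stood at 10.69, 10.39, 10.41, 10.77, 10.41 and 10.15 in exercised replicates 1 to 6. In sedentary replicates 1 to 6 it stood at 11.50, 10.64, 10.99, 10.90, 11.01 and 11.01. Of the exercised arrays 4 were below every sedentary array, and 5 sedentary arrays were above every exercised one; the exception was sedentary replicate 2, the high-background array of that group. The difference was -0.54 (SE 0.14, 95% interval -0.83 to -0.25), or 0.69 times the sedentary level, with an adjusted p of 0.12 in limma, and Acot1 was number 102 of the 9843 genes by p (exact two-sided permutation p = 0.0065, n = 6).

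Acot1 kept a negative difference in all 29 alternatives, from -0.61 to -0.21. It passed the threshold in 2 of them, with array weights (-0.45, adjusted p = 0.029 in limma) and without sedentary replicate 2 (-0.61, adjusted p = 0.037 in limma), where all high-background arrays left are exercised. In those 2 settings 533 and 236 of the 9843 genes passed, against 18 in the main fit. The difference was -0.42 with the background block, -0.46 within low-background arrays, -0.42 with the hepatocyte mean as a covariate and -0.49 without the 3 liver-rich arrays. It was -0.27 with the background and liver terms together. Median scaling put the median over all genes at 0.26 and Acot1 at -0.21, or -0.47 relative to that median. A second kept probe of Acot1 gave -0.21 (SE 0.15), with 7.20 to 7.62 in exercised and 7.08 to 8.16 in sedentary arrays. Over 12 arrays the 2 probes had a Pearson r of 0.66 (permutation p = 0.018, adjusted 0.027 over 3 such pairs) and a Spearman rho of 0.50 (permutation p = 0.10, adjusted 0.16). The r was 0.36 within exercised and 0.75 within sedentary arrays, and 0.60 without the 2 arrays farthest from the median. The remaining Acot1 probe was detected on 0 arrays.

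Acot2, the mitochondrial paralog of Acot1, was at 7.64, 8.62, 7.98, 8.05, 7.40 and 8.65 in exercised and at 7.83, 8.58, 7.69, 7.57, 7.92 and 7.84 in sedentary replicates 1 to 6. The groups overlapped, and 3 of the 4 high-background arrays were the highest of all. The difference was 0.15 (SE 0.22; adjusted p = 0.73 in limma), turning to -0.10 with the background block and -0.07 within low-background arrays. Leaving out single arrays gave values from 0.036 (without exercised replicate 6) to 0.29 (without sedentary replicate 2), and moved it by over 1.5 times also without exercised replicate 1 (0.24), 2 (0.043) or 5 (0.29) and without sedentary replicate 4 (0.088). Of the other Acot2 probes, 1 was detected on 0 arrays and 1 on 3 arrays. The sequences of the paralogs are close, and how far a probe of one captures RNA of the other was not tested.

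A factor common to all probes of an array cancels in the log2 difference Acot1 minus Acot2 within that array, which averaged 2.41 ± 0.65 in exercised and 3.10 ± 0.55 in sedentary arrays (SD, n = 6), with ranges of 1.495 to 3.04 and 2.07 to 3.67. The pair was therefore lower in the exercised group by 0.69, and by 0.39 within the low-background arrays, where the groups ranged from 2.72 to 3.04 and from 3.09 to 3.67. This pair was picked after its values were seen and is given without a test.

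Ucp3, an inner mitochondrial membrane carrier of muscle that rises when fatty acids are plentiful, had exercised values of 6.82, 7.37, 8.02, 7.08, 6.90 and 7.97. Its sedentary values were 6.61, 7.62, 7.65, 7.46, 6.69 and 7.64. Low and high arrays occurred in both groups. In the exercised group the 3 arrays of high background had 7.37 to 8.02 and the 3 of low background 6.82 to 7.08. The difference was 0.08 (SE 0.26, 95% interval -0.46 to 0.63; adjusted p = 0.89 in limma), and it was -0.15 with the background block and -0.27 within low-background arrays. A second probe gave -0.12 (SE 0.25) and followed the first over 12 arrays (Pearson r 0.87, permutation p = 0.00041, adjusted 0.0012; Spearman rho 0.84, permutation p = 0.001, adjusted 0.003), with r of 0.85 and 0.96 within exercised and sedentary arrays and 0.80 without the 2 farthest arrays.

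Angptl4, a secreted inhibitor of lipoprotein lipase, had the largest difference of the 8 genes and the widest spread. It was at 7.16, 7.02, 8.36, 8.13, 8.39 and 8.79 in exercised replicates 1 to 6 and at 8.33, 7.72, 9.49, 9.05, 8.44 and 9.12 in sedentary replicates 1 to 6. Of the exercised arrays 2 were below every sedentary array and 3 sedentary arrays above every exercised one. The difference was -0.72 (SE 0.33, 95% interval -1.43 to -0.0068; adjusted p = 0.31 in limma; exact two-sided permutation p = 0.10, n = 6). It was -0.997 within low-background arrays (adjusted p = 0.18 in limma) and 0.33 within high-background arrays, with 1 sedentary array at 7.72. A second probe was detected on 0 arrays.

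Plin5, the perilipin that ties lipid droplets to mitochondria in oxidative tissue, ranged from 10.63 to 11.16 in exercised and from 10.84 to 11.49 in sedentary arrays. Its means were 10.92 ± 0.19 and 11.11 ± 0.22 (SD, n = 6), and 2 exercised arrays lay below every sedentary one. The difference was -0.19 (SE 0.12; adjusted p = 0.41 in limma), -0.10 in the fit with the background block and -0.11 in the arrays of low background. It was -0.12 without sedentary replicate 1. With median scaling it was 0.12, or -0.14 relative to the median of all genes. A second probe gave -0.01 (SE 0.12) and followed the first weakly, with a Pearson r of 0.23 (permutation p = 0.485, adjusted 0.485) and a Spearman rho of 0.08 (permutation p = 0.82, adjusted 0.82) over 12 arrays, r of 0.28 and 0.21 within the groups and 0.34 without the 2 farthest arrays.

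**Figure D2:**
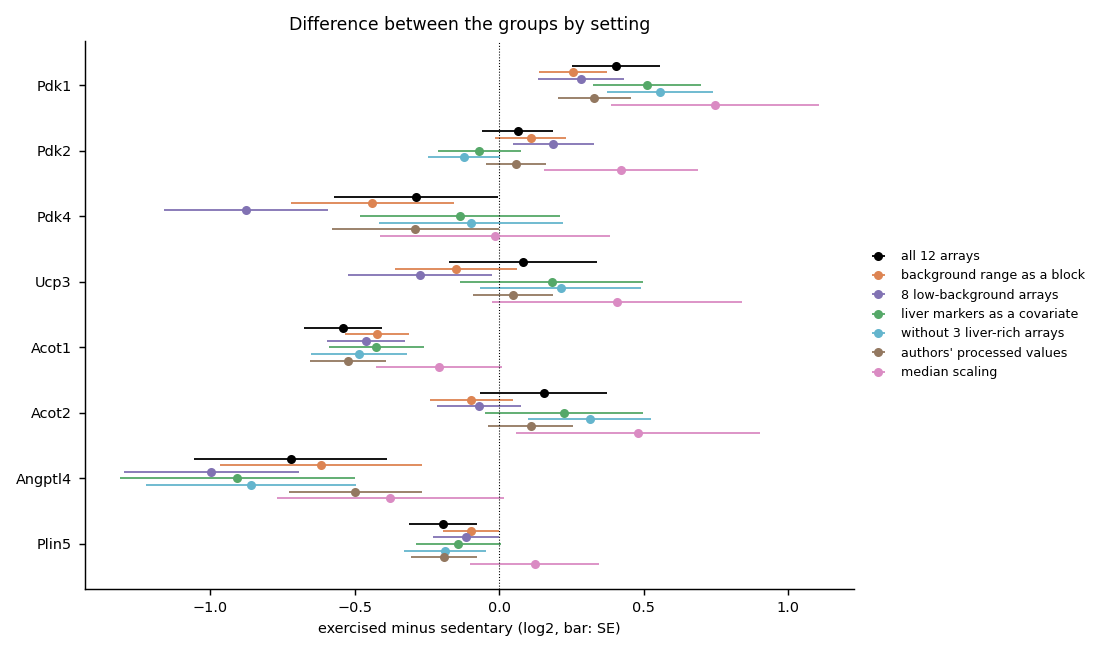
Exercised minus sedentary difference of each measured fuel-switch gene (log2, points, with bars for the SE) under 7 settings shown by colour. Acot1 lies below 0 in all 7, from -0.54 with all 12 arrays to -0.21 with median scaling. Ucp3, Acot2, Pdk2 and Plin5 have values on both sides of 0.

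Within the groups, 4 of the 8 genes varied far more than most genes. The SD within groups was 0.68 for Angptl4, 0.58 for Pdk4, 0.51 for Ucp3 and 0.44 for Acot2, against a median of 0.25 over all 9843 genes. These SDs exceeded those of 98.1%, 96.7%, 95.1% and 90.4% of all genes. From the lowest to the highest array the range was 5.55-fold for Angptl4, 3.40-fold for Pdk4, 2.67-fold for Ucp3 and 2.38-fold for Acot2. Pdk2 and Plin5, by contrast, had SDs of 0.22 and 0.21, below the median gene. Within a background range some of the 4 wide SDs were smaller. In exercised arrays of low and high background (n = 3 each), Pdk4 had 0.15 and 0.12 and Ucp3 0.13 and 0.36. Acot2 had 0.33 and 0.38 there, and Angptl4 0.65 and 0.92. In the 5 sedentary arrays of low background the SDs were 0.62, 0.52, 0.14 and 0.49 in that order. What part the background has in the spread was not tested.

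Over the 12 arrays 28 pairs of members were related, of which 10 had a positive r, and 0 pairs passed an adjusted permutation p of 0.05 by Pearson's r or Spearman's rho, while 5 had an unadjusted p of r under 0.05. Pdk4 and Ucp3 had an r of 0.69 (permutation p = 0.016, adjusted 0.088) and a rho of 0.64 (permutation p = 0.031, adjusted 0.14). Their r was 0.83 within exercised, 0.66 within sedentary and 0.84 within the 8 low-background arrays, and 0.66 without the 2 arrays farthest from the median of Pdk4. Pdk4 and Angptl4 had an r of 0.50 (permutation p = 0.099, adjusted 0.28) and a rho of 0.58 (permutation p = 0.052, adjusted 0.18), with 0.14 within exercised, 0.76 within sedentary and 0.84 within low-background arrays, and 0.23 without the 2 farthest arrays. Acot1 did not follow Pdk4, with an r of -0.01 (permutation p = 0.98, adjusted 0.98) and a rho of 0.08 (permutation p = 0.82, adjusted 0.90), and r of -0.76 and -0.01 within the groups and -0.19 without the 2 farthest arrays.

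Acot1 and Plin5 gave the largest r of the 28 pairs, at 0.81 (permutation p = 0.0019, adjusted 0.054), with a rho of 0.69 (permutation p = 0.016, adjusted 0.11). The r was 0.61 within exercised, 0.92 within sedentary and 0.62 within low-background arrays. It was 0.45 without the 2 arrays farthest from the median of Acot1, so it rests in part on those arrays. Acot1 was already known to be lower in exercised hearts, and Plin5 was lower there too (-0.19). The permutation p-values of all pairs pool the groups, so they cannot tell a relation between arrays from a shared group difference. Only the brightest probe of each gene was used, and the second Plin5 probe followed the first weakly (r 0.23). Pdk1 and Angptl4 ran opposite, with an r of -0.69 (permutation p = 0.013, adjusted 0.088) and a rho of -0.71 (permutation p = 0.011, adjusted 0.11). That relation was -0.97 within sedentary but -0.10 within exercised arrays, -0.79 within low-background arrays and -0.39 without the 2 farthest arrays.

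**Figure D3:**
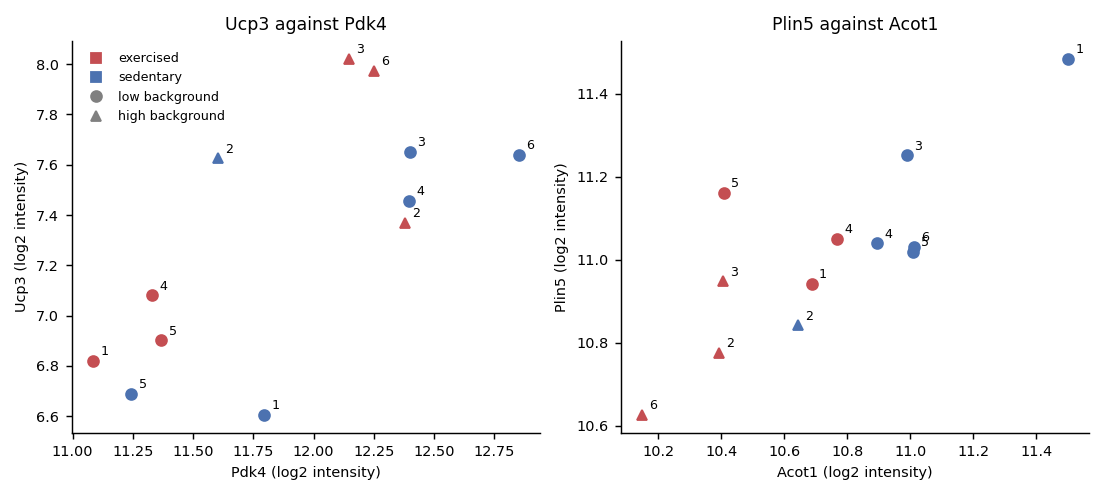
Log2 intensity of Ucp3 against Pdk4 (left) and of Plin5 against Acot1 (right) on 12 arrays, coloured by group and shaped by background range, with replicate numbers. Arrays with more Pdk4 tend to have more Ucp3 in both groups (r 0.83 and 0.66), and sedentary replicate 1 and exercised replicate 6 mark the ends of the relation of Plin5 with Acot1. Among exercised arrays, Pdk4 and Ucp3 are both higher on the 3 of high background than on the 3 of low background.

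The proximal promoters of these pairs, Pdk4 with Ucp3 and Acot1 with Plin5, are printed because these pairs had the largest positive r of the 28. Each is 300 bases of RefSeq sequence on GRCm38.p6, 250 before and 50 after an annotated start, read 5′ to 3′ on the gene's strand, at chr6:5496229-5496528, strand - (Pdk4), chr7:100472741-100473040, strand + (Ucp3), chr12:84009252-84009551, strand + (Acot1) and chr17:56117499-56117798, strand - (Plin5, the farther upstream of its annotated starts). Capitals mark AGGTCA, the half-site to which PPAR-alpha and related nuclear receptors bind.
Pdk4: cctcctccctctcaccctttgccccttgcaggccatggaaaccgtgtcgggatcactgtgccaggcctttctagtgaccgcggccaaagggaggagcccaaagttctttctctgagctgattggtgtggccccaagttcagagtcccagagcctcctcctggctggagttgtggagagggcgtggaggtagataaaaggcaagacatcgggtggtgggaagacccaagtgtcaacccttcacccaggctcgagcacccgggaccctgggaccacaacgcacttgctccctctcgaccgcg
Ucp3: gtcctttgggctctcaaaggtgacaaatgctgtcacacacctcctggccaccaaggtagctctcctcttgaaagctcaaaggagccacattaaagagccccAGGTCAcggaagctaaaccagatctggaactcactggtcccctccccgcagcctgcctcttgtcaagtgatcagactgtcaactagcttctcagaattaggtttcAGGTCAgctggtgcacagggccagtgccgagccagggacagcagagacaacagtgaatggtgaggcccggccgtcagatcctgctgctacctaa
Acot1: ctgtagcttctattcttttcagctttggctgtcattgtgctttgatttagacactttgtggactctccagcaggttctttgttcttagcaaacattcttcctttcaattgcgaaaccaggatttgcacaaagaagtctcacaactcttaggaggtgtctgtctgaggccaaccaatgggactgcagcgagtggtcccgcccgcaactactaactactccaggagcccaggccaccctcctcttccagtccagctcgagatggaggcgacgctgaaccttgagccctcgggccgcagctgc
Plin5: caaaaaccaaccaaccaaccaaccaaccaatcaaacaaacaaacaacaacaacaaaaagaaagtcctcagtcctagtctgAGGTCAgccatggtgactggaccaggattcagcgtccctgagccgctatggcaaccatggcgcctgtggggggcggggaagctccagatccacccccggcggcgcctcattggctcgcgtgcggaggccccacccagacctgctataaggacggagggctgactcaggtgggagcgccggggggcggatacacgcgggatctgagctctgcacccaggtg

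Both strands were searched in 11 windows of 8 of the genes, Ucp2 included. Angptl4 had no window in the set used and was not searched. The half-site AGGTCA occurred in 3 windows, which were the one of Ucp3, at -149 and -44 from the start, and both of Plin5, at -170 from the upstream start and at 14 from the other. Of all 32851 promoter windows of this length 16.3% hold it. The direct repeat of AGGTCA with 1 base between the copies, which contains the half-site, was in 0.0396% of all windows, and GGNCANNGGNCA, a looser form that overlaps it, in 2.08%. GTAAACA, bound by FOXO factors, was in 3.65%. None of these other motifs was in any of the 11 windows. A match is a description of the letters, and these windows do not reach distal elements.

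By the deviations of each array from its group mean over 12 arrays, the genes most like each member among 9843 were as follows, as a description without a test. Pdk4 was most like Numa1 (r 0.91), Inpp5d (0.89) and Rbl1 (0.87), and Ucp3 was most like Kdsr (0.93), Myo6 (0.89) and Rnf216 (0.88). For Acot1 these were Dyrk1a (0.95), Stambpl1 (0.93) and Rassf8 (0.92), and for Plin5 Dusp10 (0.91), Mybbp1a (0.91) and Laptm4b (0.90). Pdk1 had Cog4 (0.97), Eprs (0.96) and Acadm (0.96), the medium-chain acyl-CoA dehydrogenase of fatty acid oxidation. Acot2 had Epas1 (0.97), Ddx5 (0.96) and Tra2b (0.95), Angptl4 had Ttc23 (0.93), Il18 (0.89) and Sfxn1 (0.89), and Pdk2 had H3c7 (0.90), Gas2 (0.81) and Hnrnph3 (0.80). Arrays differ in background range and liver content, and what part these have in the values was not tested.

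Markers of other cell types moved with some members. Of 40 relations between the 8 genes and the marker means of cardiomyocytes, adipocytes, skeletal muscle, macrophages and endothelium, 1 passed an adjusted permutation p of 0.05 by r and 2 by rho. Pdk1 ran opposite to the macrophage mean, with an r of -0.87 (permutation p = 0.00024, adjusted 0.0096) and a rho of -0.89 (permutation p = 0.00025, adjusted 0.010). The r was -0.84 within exercised, -0.79 within sedentary and -0.73 within low-background arrays, and -0.88 without the 2 farthest arrays. In each group the macrophage mean was lowest on the high-background arrays. Among exercised arrays it was 8.49 to 8.58 there and 8.75 to 8.86 at low background. The high-background sedentary array was at 8.81. Pdk1 was highest on these same arrays. The r within low-background arrays pools the groups. What part the background has in relations with the macrophage mean was not tested. Acot1 ran with the macrophage mean by rank over both groups together, with a rho of 0.85 (permutation p = 0.00082, adjusted 0.016). The r was 0.67 (permutation p = 0.018, adjusted 0.12). Acot1 was already known to be lower in exercised hearts, and the macrophage mean was lower there too, at 8.67 against 9.21. These p-values pool the groups, so they cannot tell a relation between arrays from that shared group difference. The r of Acot1 with the macrophage mean was 0.72 within exercised and -0.07 within sedentary arrays. It was 0.29 within low-background arrays and 0.71 without the 2 farthest arrays. The part of cell composition in these differences was not tested.

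The partners of pyruvate dehydrogenase were mostly higher in exercised hearts without passing the threshold. Of 10 measured, 8 were positive with a median of 0.28, 0 passed in either direction over all genes and 1 had an unadjusted p under 0.05. Over all genes 43.4% were positive and 15.9% had such a p. Pdp2, a catalytic subunit of the phosphatase that reactivates the complex, was at 11.08 to 11.54 in exercised and 10.45 to 10.97 in sedentary arrays. Its 6 exercised arrays were all above every sedentary array, and 1.12% of all genes had no overlap of the groups in either direction. The difference was 0.42 (SE 0.10, adjusted p = 0.11 in limma). Pdp2 was higher in all 29 alternatives, from 0.31 with the mean over its kept probes to 0.75 with median scaling. It passed the threshold in 2 of them, with array weights (adjusted p = 0.028 in limma) and without sedentary replicate 2 (0.46, adjusted p = 0.045 in limma). Of all genes, 533 and 236 passed in those settings, against 18 in the main fit. Pdpr, the regulatory subunit of that phosphatase, differed by 0.35 (SE 0.17), Pdp1, its other catalytic subunit, by 0.33 (SE 0.20) and Dlat, the acetyltransferase core, by 0.28 (SE 0.15). With the background block the list median was 0.10, with 7 of 10 positive.

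Other targets of PPAR-alpha in fatty acid use were positive for 15 genes among the 18 measured (median 0.17), against 43.4% positive over all genes. None passed the threshold, and 5 of 18 had an unadjusted p under 0.05, all of them higher, against 15.9% of all genes, of which 521 were higher and 1044 lower. They included Ehhadh, the peroxisomal bifunctional enzyme (0.52, SE 0.20), Decr1, which serves oxidation of unsaturated fatty acids (0.35, SE 0.15), Acaa2, a mitochondrial thiolase (0.38, SE 0.16), and Acadvl, the very long-chain dehydrogenase (0.22, SE 0.10). The list median was 0.12 with the background block, 0.09 within low-background arrays and 0.20 above the median of all genes with median scaling. Acot1, Angptl4 and Pdk4 (-0.29, SE 0.28), targets of the same receptor, had negative differences beside them. Ucp3, a further target, was at 0.08 (SE 0.26). Whether these members differ from this list was not tested.

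Regulators of the switch were divided, with 9 of 17 positive (43.4% of all genes) and a median of 0.03, and 0 passed; with median scaling all 17 were positive and the median was 0.07 above that of all genes. Those of smallest p were all higher, with Ppara itself at 0.56 (SE 0.22), Esrrg, a receptor that drives oxidative genes, at 0.43 (SE 0.17), the coactivator Ppargc1a at 0.51 (SE 0.21) and Foxo3, a factor active in fasting, at 0.47 (SE 0.21). Ppara and Foxo3 were of low intensity. Their means in exercised and sedentary arrays were 5.65 and 5.09 for Ppara and 5.92 and 5.45 for Foxo3. The lowest sedentary arrays were at 4.49 for Ppara and 4.88 for Foxo3. Of the 17 regulators, 14 were detected on all 12 arrays, and 7 of these were positive.

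Other thioesterases gave a median of -0.07 with 4 of 10 positive (9 of 10 with median scaling, where the median minus that of all genes was -0.02), and 0 of 10 had an unadjusted p under 0.05. Over all genes these shares were 43.4% and 15.9%. Acot4, Acot9, Acot13 and Acot10 differed by 0.24, -0.22, -0.13 and -0.12. Acot4 and Acot9 were of low intensity, at percentiles 5.4 and 7.1 of the mean level over all genes. Of the other carriers, 3 were measured, with Slc25a30 at 0.43 (SE 0.30), Slc25a14 at -0.10 and Slc25a5, an adenine nucleotide translocase, at -0.03.

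Genes of lipid droplets and lipolysis were positive in 5 of 15 (43.4% of all genes), with a median of -0.08, and 0 passed; with median scaling 13 were positive and the median minus that of all genes was -0.02. Hilpda, an inhibitor of the lipase encoded by Pnpla2, differed by -0.40 (SE 0.13; adjusted p = 0.19 in limma), with 4 exercised arrays below every sedentary array. Dgat2, an enzyme of triglyceride synthesis, differed by 0.31 (SE 0.12), Pnpla2, the adipose triglyceride lipase, by 0.17 (SE 0.07) and Fitm1 by -0.22 (SE 0.12).

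Among the partners of lipoprotein lipase, which Angptl4 inhibits, 5 of 8 were positive (43.4% of all genes) with a median of 0.02, and 0 passed. Vldlr, a lipoprotein receptor, differed by 0.36 (SE 0.11; adjusted p = 0.16 in limma), with 5 of 6 exercised arrays above every sedentary one, and Gpihbp1, which anchors the lipase to capillaries, by -0.36 (SE 0.20). Apoc3 and Apoc1, apolipoproteins made mainly in liver, differed by 2.83 (SE 1.04) and 2.38 (SE 1.00), and for each there were 3 exercised arrays higher than all sedentary ones. Apoc3 is also on the hepatocyte list, and the exercised arrays rich in hepatocyte markers number 3.

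**Figure D4:**
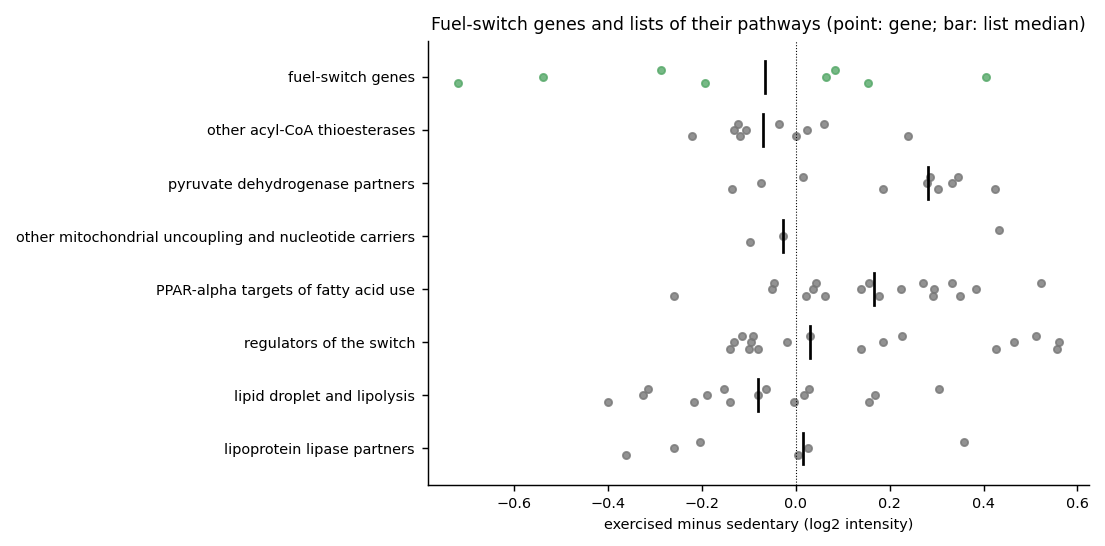
Exercised minus sedentary difference (log2 intensity, 1 point a gene, bars for list medians) of the fuel-switch genes and of 7 lists of their pathways. The medians lie between -0.08 and 0.28, and the points of Apoc1 (2.38) and Apoc3 (2.83) among the lipoprotein lipase partners are beyond the axis and not drawn.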

How the data were processed

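Biotin-labelled RNA of whole mouse hearts was measured on Illumina beadchips, with 1 array for each of 6 exercised and 6 sedentary samples. The authors deposited a linear intensity for each of 45281 probes, not normalized per the file headers, and, per the file headers, a detection p-value for each. A further deposited table holds values that behave as log2; lumi is named in the submitters' processing notes, but its steps and scale are not given in the sources used here.

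Intensities were background-corrected and quantile-normalized with neqc of limma 3.58.1 in R 4.3.3, which estimated the background from the detection p-values and added an offset of 16. The 17098 probes kept had 6 or more arrays with a detection p under 0.01. Symbols came from the platform annotation, and the brightest kept probe stood for each of 9843 genes. Exercised minus sedentary was fitted with lmFit and eBayes with an intensity trend, and p-values were adjusted by Benjamini-Hochberg over all genes. Permutation p-values of correlations used 100000 resamples (scipy 1.17.1), and single members were also compared by exact permutation over 924 assignments. The fit was tested on simulated data.

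The members, gene lists, tests and alternatives were chosen with earlier results of these data known, and the text names all members, up to 4 genes of smallest p in each list, the 3 genes most like each member and up to 4 bright markers. The alternatives tried were other background corrections, scalings, filters and probe rules, the deposited values, array weights, background and liver terms, subsets of arrays, leaving out each array and a replicate block. Replicate numbers are not stated to pair the arrays, so the main fit had no block. Same-numbered deviations from the group means correlated between -0.29 and 0.56 over the 6 pairs, which does not settle whether they are paired. Arrays were divided into a low and a high background range at a 5th percentile of raw intensity of 75. Promoter windows are those of RefSeq for GRCm38.p6.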

Additional observations from a re-analysis of the deposited data

Results flagged for a closer look

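Acot2 in sedentary replicate 2, at 8.58 (log2 intensity), stood far above the other 5 sedentary arrays, which lay at 7.57 to 7.92. It was the 1 such value among 16 groups examined (8 genes in 2 groups of 6 arrays), where chance gives about 0.8. That array is the sedentary one of high background; what part the background has in the value was not tested.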

How the results depend on the processing

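The number of arrays and the background range limit these results. The count of 18 genes past the threshold in limma became 36 with the background range as a block, 10 within low-background arrays, 9 with cyclic loess, 533 with array weights, 3 with a replicate block, 4 with median scaling plus the background block and 3 with background and liver terms together (both combinations added after seeing the data). It was 1 without a filter, 1 with the liver covariate and 1 without the liver-rich arrays. It was 0 with median scaling and 0 within high-background arrays, where limma gave 432 and 105 genes at an unadjusted p under 0.05. The high-background arrays hold 1 sedentary sample, which is assumed to vary like the 3 exercised ones, so those values say little. Leaving out single arrays gave counts from 1 to 236: for exercised replicates, 2 without 1 or 4 and 1 without 2, 3, 5 or 6; for sedentary replicates, 17, 236, 3, 1, 1 and 2 in their order. The cause of these shifts was not tested. The replicate block moved no fuel-switch gene across the threshold.

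Of the 8 genes, Pdk1 and Acot1 had the same sign in all 29 alternatives. Pdk4 (0.66) and Angptl4 (0.33) turned positive only within high-background arrays, and Plin5 (0.12) only with median scaling. Pdk2 turned to -0.0895 within high-background arrays, -0.0694 with the liver covariate, -0.12 without the liver-rich arrays and -0.0253 with both terms, and ranged from -0.0299 to 0.13 when single arrays were left out. Acot2 turned to -0.10 with the background block, -0.0697 within low- and -0.16 within high-background arrays, -0.0831 with both terms and -0.0940 with median scaling plus the block. Ucp3 turned to -0.0197 with the mean over probes, -0.14 with array weights, -0.15 with the block, -0.27 within low-background arrays, -0.10 with both terms and -0.14 with median scaling plus the block, and ranged from -0.0512 to 0.19 when single arrays were left out.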
